A study of Mus musculus with 65 samples.

Results

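Chromosome 18 carried 559 of the 13808 DMC1 hotspots listed for wild-type mouse testis, and these 559 regions are described here against the hotspots of the other 18 autosomes. They were taken as all rows of the wild-type DMC1 list on that chromosome, so each member was chosen by having a DMC1 call in the wild type. All 559 enter the share comparisons with no filter, and ranks could be compared only for the 138 also present in the Hormad1KO list. The other 18 autosomes held 12755 hotspots. The X chromosome was left out of the comparisons.

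Meiotic recombination begins with DNA double-strand breaks made on purpose by SPO11. In mice their places are set by PRDM9, a methyltransferase that binds DNA at hotspots. DMC1 is a recombinase loaded onto the single strands exposed at a break, so its chromatin immunoprecipitation marks break sites. MEI4 and IHO1 are accessory proteins needed for breaks, HORMAD1 and SYCP3 belong to the protein axis along which meiotic chromosomes are folded, and CTCF is a DNA-binding protein that organises chromatin loops.

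The groups share one protocol. Male C57BL/6JCrl pups aged 1.5 days were fed a retinoic acid inhibitor for 7 to 10 days, then given 1 injection of retinoic acid, and whole testes were taken 8 days later, when 80 to 95% of the cells were leptotene or zygotene spermatocytes. The groups used were the wild type and the knockouts named Prdm9KO (B6;129P2-Prdm9tm1Ymat/J), Spo11KO (Spo11tm1Mjn), Mei4KO (Mei4tm1Bdm), Iho1KO (Iho1tm1.2Atot) and Hormad1KO (Hormad1tm1.2Atot). Each protein had a single list in each genotype: MEI4, IHO1 and HORMAD1 in 5 genotypes each, SYCP3 in 6, DMC1 in the wild type and Hormad1KO, and CTCF in the wild type. A peak was counted at a hotspot where the intervals shared at least 1 bp. No difference between genotypes has a replicate check, depth is unknown, and intervals cover counting error only, with hotspots treated as independent.

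By the measure that chose them, the hotspots of chromosome 18 were dense and of middle strength. There were 6.17 per Mb of chromosome, second from the highest of the 19 autosomes (4.69 to 6.19 on the others). Their median DMC1 value, the authors' number for each hotspot with no stated unit, was 127.5, and the medians of the other autosomes ran from 108.5 to 141.75. The upper quartile, 359.75, was below that of each other autosome (379.5 to 494). The highest value was 11614.5 and the lowest 14.5. The median width, 1900 bp, was also the smallest of the 19 (1912 to 1969 bp in the others). Stronger hotspots were found again more often, so each share of hotspots below was compared at like wild-type value. All autosomal hotspots were divided into 10 classes of equal number by value, and the share expected on chromosome 18 was that of the other 18 autosomes in the same classes. A difference was called where its 95% interval excluded 0. The same was computed for each of the 19 autosomes in turn, which gives the background of such calls and the place of chromosome 18 among them.

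Without HORMAD1, fewer of the chromosome 18 hotspots were found again as DMC1 sites than of other hotspots of like value. Of the 559, 138 were in the Hormad1KO list (24.7%, Wilson 95% interval 21.3 to 28.4), and 33.3% were expected. The difference was -8.64 percentage points (-12.1 to -4.86). Such calls were common, with 12 of 19 autosomes called (63.2%) and 6 of them below 0 (31.6%). Chromosome 18 stood second from the lowest, beside chromosome 10 at -8.76, and the highest was chromosome 9 at 11.8. The hotspots found again had a median wild-type value of 939.5 and those not found 79. With the autosomal hotspots divided into 4 groups of equal number, the gap was widest in the middle of the range. In the group with values from 128 to 429, 32 of 150 were found (21.3%, 15.5 to 28.6) and 36.7% on the other autosomes, where the lowest single autosome had 21.5%. In the group below it, from 55 to 128, 3 of 135 were found (2.22%) against 11.7%, and the lowest other autosome had 3.26%. In the strongest group 102 of 127 were found (80.3%, 72.6 to 86.3) against 87.3%, and there 3 autosomes were lower.

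**Figure D1:**
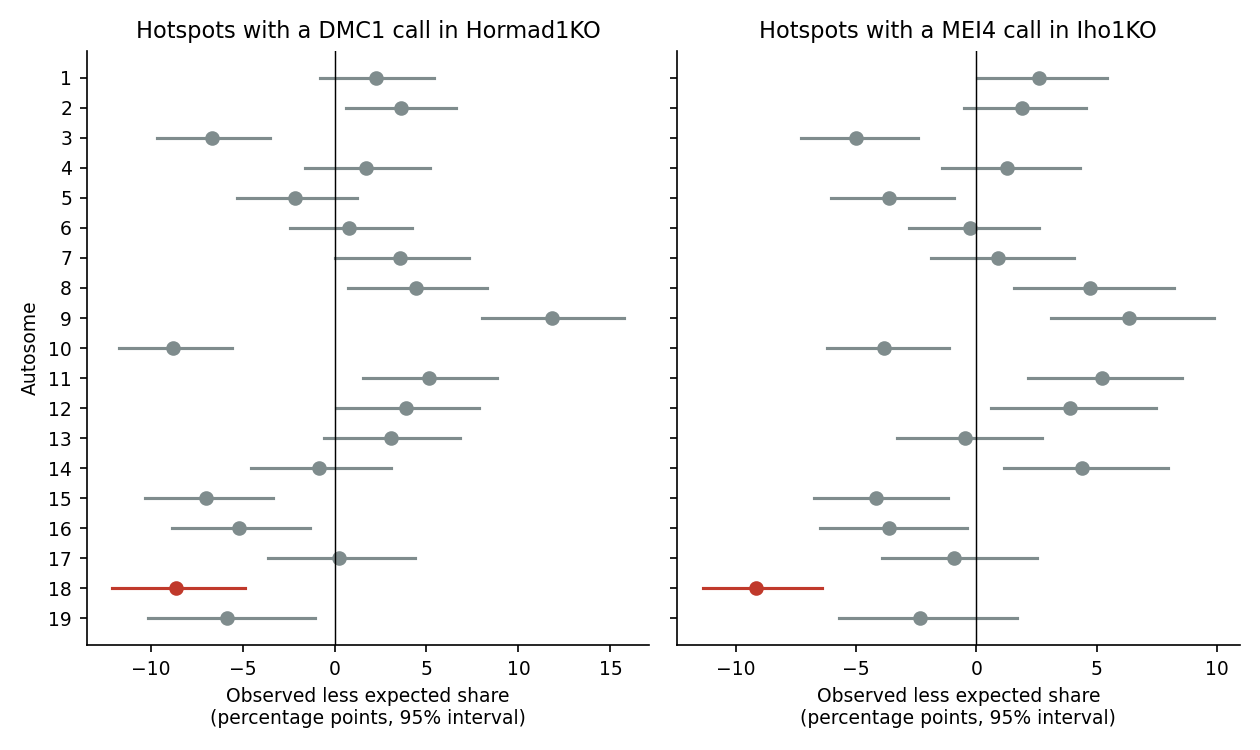
Observed less expected share of hotspots with a DMC1 call in Hormad1KO (left) and with a MEI4 call in Iho1KO (right), in percentage points with 95% intervals, for each of 19 autosomes; chromosome 18 is in red. Chromosome 18 lies at -8.64 points on the left, next to chromosome 10, and at -9.15 on the right, below the 18 others.

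The hotspots that were found again also ranked lower in the Hormad1KO list. A percentile of 100 is the strongest hotspot of a list. The 138 shared hotspots of chromosome 18 had a median percentile of 86.3 in the wild-type list and 35.6 in the Hormad1KO list. On the other autosomes the wild-type medians ran from 76.8 to 85.2 and the Hormad1KO medians from 47.0 to 57.8. The shift from one list to the other was first taken without matching on value. The median shift per hotspot was -41.7 percentile points on chromosome 18 (quartiles -58.4 and -23.3), and between -34.8 (chromosome 19) and -17.4 (chromosome 9) on the others. Set beside hotspots of the same value class elsewhere, the chromosome 18 hotspots were 17.7 percentile points lower in the median (-17.7), and the next autosomes, 3 and 19, were at -6.12. Of the 138, 115 ranked below the median of their class elsewhere (83.3%, Wilson interval 76.2 to 88.6), whereas on the other autosomes this share ran from 39.1 to 63.4%. All class medians came from the autosomes other than chromosome 18. Each of those autosomes was thus set beside medians that include its own hotspots. The interval lay above 50% on 5 of 19 autosomes (26.3%). The lower rank was present in the strongest of the 4 groups, where the median Hormad1KO percentile was 51.4 for 102 hotspots of chromosome 18 and 66.9 for 2794 others, and in the next group, with 15.9 for 32 and 33.9 for 1166. The Hormad1KO list had 145 hotspots on chromosome 18, of which 7 had no wild-type partner (4.83%). In the whole list 242 of 5002 had none (4.84%).

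**Figure D2:**
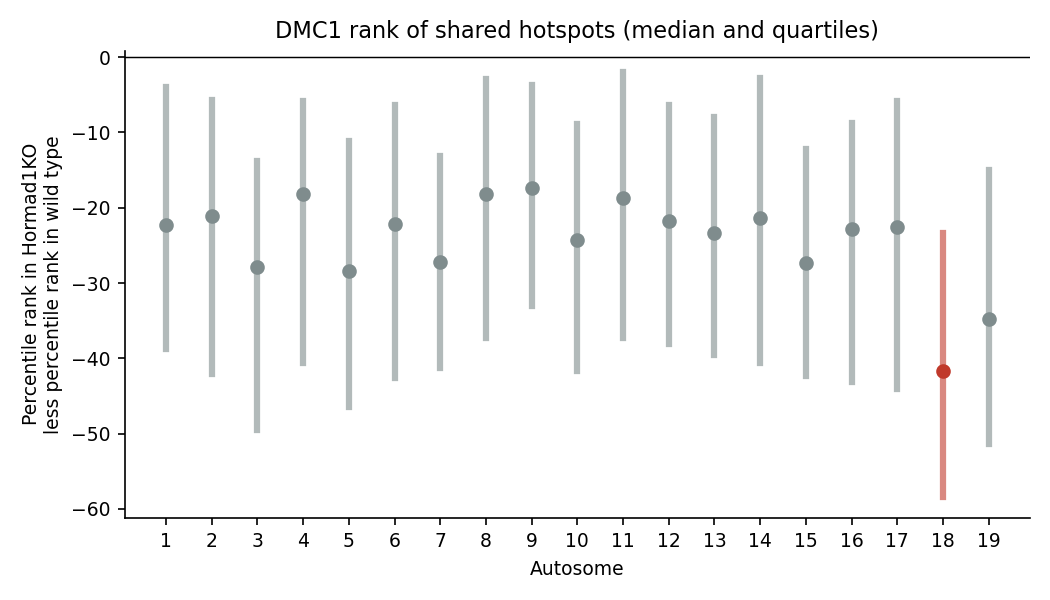
Percentile rank of shared DMC1 hotspots in Hormad1KO less that in the wild type, as median (circle) and quartiles (bar) for each autosome; chromosome 18 is in red. The median of chromosome 18, -41.7, is the lowest of the 19, followed by chromosome 19 at -34.8. These shifts are not matched on wild-type value.

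MEI4, the break factor that lies at hotspots, was called at chromosome 18 hotspots as often as at others in the wild-type list and less often in 3 knockout lists. In the wild type 59 of 559 hotspots had a MEI4 peak (10.6%, 8.27 to 13.4), and 10.5% were expected. The difference, 0.104 points (-2.21 to 2.95), was not called, and 3 of 19 autosomes were (15.8%), 1 of them lower (5.26%). In Iho1KO 53 had one (9.48%, 7.32 to 12.2) and 18.6% were expected. The difference was -9.15 points (-11.4 to -6.39), and the share was 0.509 of that expected (0.393 to 0.658). The difference was lower than on any other autosome, where differences ran from -5.01 (chromosome 3) to 6.35 (chromosome 9). In Iho1KO 12 of 19 autosomes were called (63.2%). In Hormad1KO 106 had a MEI4 peak (18.96%) against 26.3% expected, a difference of -7.35 points (-10.4 to -3.85), beside -7.57 on chromosome 3, and 8 of 19 autosomes were called (42.1%). In Spo11KO 119 had one (21.3%) against 26.8%, a difference of -5.54 points (-8.77 to -1.92), beside -5.19 on chromosome 3, and 5 of 19 were called (26.3%). With an interval adjusted over all 23 readouts compared, the Spo11KO difference was no longer called (-10.4 to 0.270). The wild-type list was sparser than these 3 knockout lists, with 10.5% expected against 18.6%, 26.3% and 26.8%. Whether a fuller wild-type list would also show a lower share was not tested. In Prdm9KO no hotspot of chromosome 18 had a MEI4 peak. Taken as 3 counts of 559, a count of 0 allows a share of up to 0.537%, and 0.0646% was expected. In that list 1 of 19 autosomes was called (5.26%).

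The difference between a knockout and the wild type was itself tested over the same hotspots, for 17 lists. The interval was computed hotspot by hotspot and chosen after the data were examined. It sets 1 list against 1 list and covers counting error over hotspots, not the spread between samples. The points were not scaled to the number of peaks in each list. For MEI4 the chromosome 18 difference was lower than in the wild type by -9.26 points in Iho1KO (-11.6 to -6.92), -7.45 in Hormad1KO (-10.1 to -4.83) and -5.65 in Spo11KO (-8.42 to -2.87). Each was the lowest of the 19 autosomes. The background was high, since 10, 9 and 6 of 19 autosomes were called in these comparisons (52.6%, 47.4% and 31.6%). Of the 17 lists, 6 were called, and 4 with intervals adjusted over the 17: these 3 and IHO1 in Hormad1KO. The other 2 were IHO1 in Spo11KO and SYCP3 in Prdm9KO. For IHO1 in Spo11KO it was lower by -3.31 points (-5.73 to -0.895, 26.3% of autosomes called). For SYCP3 in Prdm9KO it was higher by 2.23 points (0.121 to 4.34, 10.5% called) and the highest of the 19. In Prdm9KO itself SYCP3 was at only 7 hotspots. Its difference there, 0.143 points, was not called, and that of the wild type was -2.09. The Prdm9KO SYCP3 group has a single sample.

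The MEI4 shares differed most in hotspots below the strongest. In the strongest of the 10 classes, with values from 1246, MEI4 was at 38 of 53 chromosome 18 hotspots in the wild type (71.7%), 51 in Spo11KO (96.2%), 49 in Hormad1KO (92.5%) and 41 in Iho1KO (77.4%), and the other autosomes had 65.2%, 93.7%, 91.7% and 80.5%. In the class below, from 588 to 1246, the Iho1KO share was 7 of 54 (12.96%, 6.42 to 24.4) against 48.9% elsewhere, where the lowest autosome had 29.1%. One class further down, from 319 to 588, it was 1 of 48 (2.08%, 0.369 to 10.9) against 29.6%, with a lowest autosome of 11.4%. In Spo11KO the corresponding shares were 36 of 54 (66.7%) against 81.3%, the lowest of the 19, and 21 of 48 (43.8%) against 56.9%. In Hormad1KO they were 29 of 54 (53.7%) against 71.5%, and 16 of 48 (33.3%) against 49.8%, second from the lowest in both classes. The wild-type shares in these classes were 18 of 54 (33.3%) against 31.9%, and 2 of 48 (4.17%) against 9.19%. Below a value of 194.5 no chromosome 18 hotspot had a wild-type MEI4 peak. Elsewhere at most 0.786% of the hotspots in any of those classes had one. Over hotspots at or above the autosomal median value alone, the differences were larger: -16.9 points for MEI4 in Iho1KO, -12.6 in Hormad1KO and -9.52 in Spo11KO, and -10.4 for IHO1 in Hormad1KO.

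**Figure D3:**
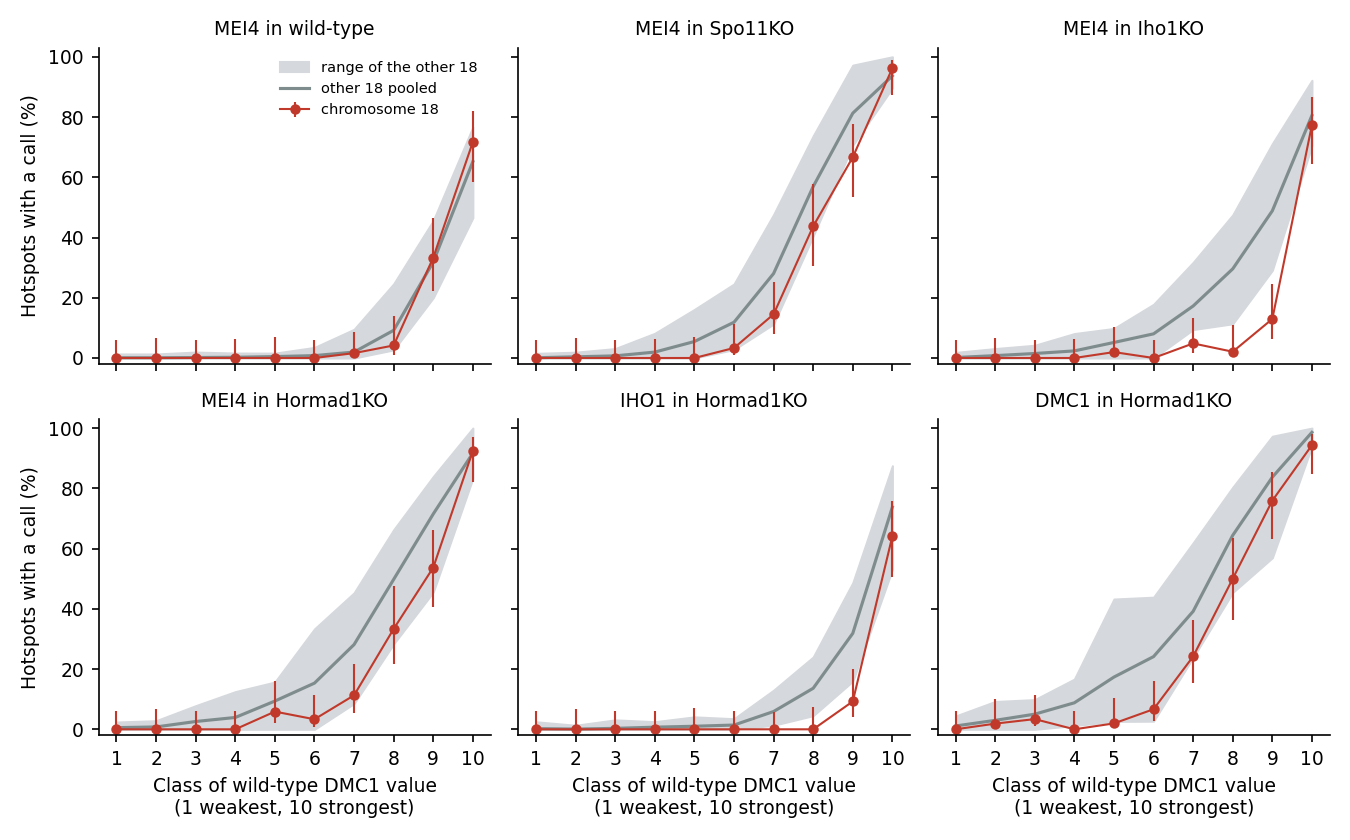
Share of hotspots with a call in 10 classes of wild-type DMC1 value, for chromosome 18 (red, Wilson 95% intervals), the other 18 autosomes pooled (grey line) and their range (grey band), in 6 lists. In wild-type MEI4 the class of 588 to 1246 has 33.3% on chromosome 18 and 31.9% elsewhere, and the class of 319 to 588 has 4.17% and 9.19%. In Iho1KO the class of 588 to 1246 has 12.96% on chromosome 18 and 48.9% elsewhere.

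The hotspots were also divided by their wild-type MEI4 peak. Value classes were cut anew within each kind, 4 for hotspots with a peak and 10 for those without. No background of calls over the autosomes is given for this split. Of the 59 chromosome 18 hotspots with a wild-type MEI4 peak, 56 kept one in Spo11KO (94.9%, 95.0% expected) and 54 in Hormad1KO (91.5%, 94.5% expected), and neither difference was called. In Iho1KO 35 of 59 kept one (59.3%, 46.6 to 70.9) and 83.7% were expected, a difference of -24.4 points (-37.2 to -12.6). Among the 500 hotspots without a wild-type MEI4 peak, 63 had one in Spo11KO (12.6%, 18.6% expected, difference -5.99 points, -8.66 to -2.75). In Hormad1KO 52 of the 500 did (10.4%, 18.2% expected, -7.76 points, -10.2 to -4.72), and in Iho1KO 18 did (3.60%, 11.1% expected, -7.49 points, -8.89 to -5.41). DMC1 in Hormad1KO was called lower in both, with 52 of 59 (88.1%, 95.0% expected) and 86 of 500 (17.2%, 25.9% expected). Whether the 2 kinds of hotspot differ was not tested. These splits were also chosen after the data were examined.

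IHO1, the partner of MEI4 that recruits the break machinery to the axis, gave a lower share in Hormad1KO. In that list 39 of 559 hotspots had a peak (6.98%, 5.15 to 9.40) and 12.3% were expected. The share was 0.568 of that expected. The difference, -5.31 points (-7.19 to -2.85), was the lowest of the 19 autosomes, the next being chromosome 3 at -3.61, and 5 of 19 autosomes were called (26.3%). All 39 lay in the strongest of the 4 groups, 39 of 127 (30.7%, 23.4 to 39.2) against 45.6% elsewhere. In the wild type IHO1 was at 26 hotspots (4.65%, 3.86% expected, difference 0.795, -0.689 to 2.89). In Spo11KO it was at 64 (11.4%, 14.0% expected, difference -2.52, -4.94 to 0.423). Neither was called. The Spo11KO value was the lowest of the 19, of which 1 was called (5.26%). The Hormad1KO difference was lower than that of the wild type by -6.10 points (-8.10 to -4.10), again the lowest of the 19, where 10 of 19 were called (52.6%). Prdm9KO and Mei4KO had IHO1 at 0 of 559 hotspots, with 0.158% and 0.304% expected.

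No list of the axis proteins HORMAD1 and SYCP3 was called on chromosome 18. HORMAD1 was at 24 hotspots in the wild type (4.29%, 4.45% expected, with 5.26% of autosomes called) and 19 in Spo11KO (3.399%, 5.13% expected). It was at 5 in Mei4KO (0.894%, 2.08% expected), 3 in Iho1KO (0.537%, 1.43% expected) and 1 in Prdm9KO (0.179%, 0.403% expected). In the HORMAD1 knockout lists between 5.26 and 21.1% of autosomes were called. The differences ran from -1.73 points in Spo11KO (-2.98 to 0.150) to -0.160 in the wild type (-1.58 to 1.88), and all 5 were below 0. SYCP3 was at 29 hotspots in the wild type (5.19%, 7.28% expected, difference -2.09, -3.67 to 0.0976). It was at 24 in Spo11KO (4.29%, 5.84% expected), 39 in Iho1KO (6.98%, 6.60% expected) and 7 in Prdm9KO (1.25%, 1.11% expected). Mei4KO had it at 4 (0.716%, 1.14% expected) and Hormad1KO at 3 (0.537%, 1.44% expected). The differences in these knockouts ran from -1.55 to 0.378 points. Between 5.26 and 26.3% of autosomes were called in the SYCP3 lists. Where the expected share is this small, a difference in points has little room to fall. No call there does not show an equal share. Over the 21 lists of the 4 proteins, 4 were called, all lower, beside 7.02% of the 399 pairs of a list and an autosome that were called lower and 9.77% that were called higher. The difference was below 0 in 17 of the 21 lists. By the same count chromosome 16 had 19 lists and chromosome 9 had 0. Lower calls were as many or more on other autosomes, with 5 lists on chromosome 3 and 4 each on chromosomes 5 and 15. Chromosome 18 was the lowest of the 19 autosomes in 6 lists, and no other autosome was the lowest in more than 2.

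**Figure D4:**
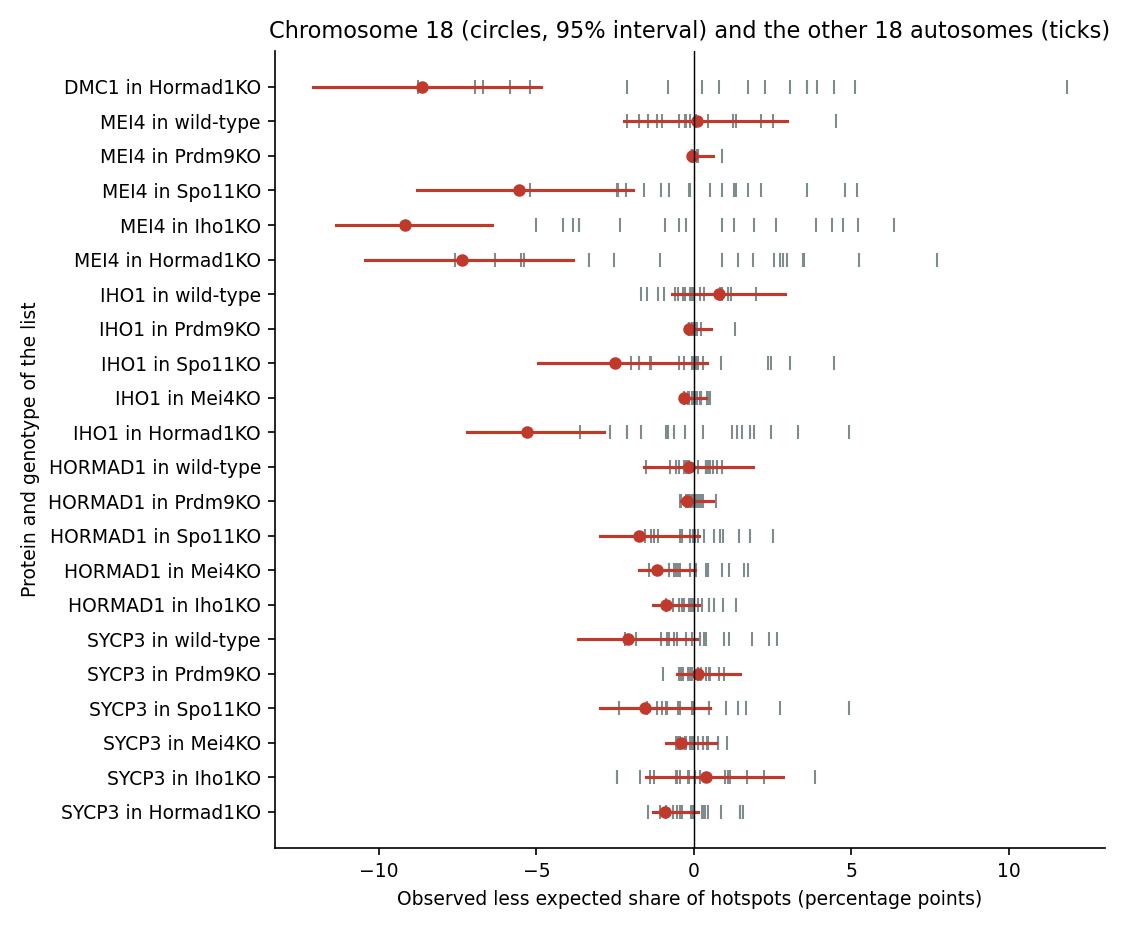
Observed less expected share of hotspots, in percentage points, in the Hormad1KO DMC1 list and the 21 protein lists; red circles with 95% intervals are chromosome 18 and grey ticks the other 18 autosomes. The chromosome 18 interval excludes 0 for DMC1 and IHO1 in Hormad1KO and for MEI4 in Spo11KO, Iho1KO and Hormad1KO.

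Membership was also counted jointly over 4 lists that were each called lower above, so these counts describe the same calls and are no separate support. Across MEI4 in Spo11KO, Iho1KO and Hormad1KO and DMC1 in Hormad1KO, 45 of 559 chromosome 18 hotspots were in all 4 lists (8.05%, 6.07 to 10.6) and 14.8% were expected, a difference of -6.74 points (-8.77 to -4.14). In none of the 4 were 384 (68.7%, 64.7 to 72.4), where 60.2% were expected, a difference of 8.500 points (4.497 to 12.3). These were the lowest and the highest of the 19 autosomes, of which 36.8% and 52.6% were called. Over all 21 protein lists, 366 of the 559 hotspots had no peak in any list (65.5%, 59.3% expected at like value). No MEI4 peak in any genotype was found at 417 (74.6%, 67.0% expected), and 48 had a peak in 5 or more lists (8.59%, 12.7% expected). For these last counts no interval, place among the autosomes or background of calls is given.

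Along the chromosome the lower shares recurred in most 10 Mb windows. Of the 9 windows with at least 20 hotspots, 9 were below expectation for MEI4 in Iho1KO, 9 for MEI4 in Hormad1KO, 8 for DMC1 in Hormad1KO and 8 for IHO1 in Hormad1KO. Of 237 such windows on the other autosomes the shares below expectation were 57.4%, 54.0%, 53.2% and 55.7%. For MEI4 in Spo11KO 7 of 9 were below (51.1% elsewhere), and for wild-type MEI4 6 of 9 (53.6% elsewhere). Single windows varied. In the first 10 Mb, MEI4 in Spo11KO was at 3 of 43 hotspots, where 12.6 were expected. Between 80 and 90 Mb, DMC1 in Hormad1KO was at 9 of 64 with 19.8 expected, MEI4 in Iho1KO at 1 with 9.88 expected, and IHO1 in Hormad1KO at 0 with 5.55 expected. Between 20 and 30 Mb 23 of 51 hotspots were DMC1 sites in Hormad1KO (18.7 expected), the one of the 9 windows above expectation for DMC1. There 10 had MEI4 in Iho1KO (10.9 expected), 14 in Hormad1KO (14.9 expected) and 10 in Spo11KO (15.2 expected), and 6 had IHO1 in Hormad1KO (7.49 expected). The rank difference in Hormad1KO was below 0 in each of the 9 windows, from -28.2 percentile points between 10 and 20 Mb to -2.37 between 20 and 30 Mb.

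On chromosome 18 there were 1024 CTCF peaks, or 11.3 per Mb, the seventh lowest of the 19 autosomes, which ran from 10.1 to 18.8. At the hotspots themselves, 43 of 559 had a CTCF peak (7.69%, 5.76 to 10.2) and 8.66% were expected. The difference, -0.969 points (-2.96 to 1.59), was not called, and 2 of 19 autosomes were (10.5%), 1 of them lower (5.26%). Within 10 kb of the hotspot 159 had one (28.4%, 32.3% expected), a difference of -3.87 points (-7.55 to 0.0892), which fell short of a call where 42.1% of autosomes were called. Within 50 kb 364 had one (65.1%, 61.1 to 69.0) and 70.2% were expected, a difference of -5.11 points (-9.23 to -1.20), where 11 of 19 autosomes were called (57.9%). The 6 autosomes with fewer CTCF peaks per Mb than chromosome 18 had DMC1 differences in Hormad1KO of both signs: -6.68 points on chromosome 3, -5.20 on 16, -0.822 on 14, 2.26 on 1, 3.07 on 13 and 3.91 on 12. Hotspots were then matched also on the number of CTCF peaks within 500 kb, a choice made after the data were examined. The chromosome 18 difference for DMC1 in Hormad1KO was then -7.66 points (-8.64 without it). For MEI4 in Iho1KO, Hormad1KO and Spo11KO the differences were -8.41, -6.37 and -4.80 (-9.15, -7.35 and -5.54 without it). Each was called, but no background of calls over the autosomes is given for this matching. Whether CTCF density bears on the lower shares was not tested.

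The chromosome 18 hotspots with the fewest CTCF peaks around them gave no call. With autosomal hotspots in 4 groups by that number, in the group with 0 to 8 CTCF peaks within 500 kb, 39 of 150 chromosome 18 hotspots were found in the Hormad1KO DMC1 list (26.0%, 19.6 to 33.6) and 24.6% were expected, a difference of 1.40 points (-5.05 to 9.03). In the other 3 groups, from fewer to more CTCF peaks, the differences were -10.6 (-16.3 to -3.65), -9.49 (-16.3 to -1.62) and -13.8 points (-21.0 to -4.53), each called. For MEI4 in Iho1KO the group with the fewest gave -2.08 points (-5.54 to 3.43), not called, and the others -9.07, -11.2 and -12.8, each called. Other lists were less regular. For MEI4 in Hormad1KO the 4 differences were -4.28, -4.59, -6.75 and -12.0 points, of which the last alone was called. For MEI4 in Spo11KO they were -0.105, -7.08, -7.62 and -3.95, with the second alone called, and for IHO1 in Hormad1KO -2.15, -5.40, -6.01 and -6.41, with the second and the third called. In each of these lists the expected share was lowest in the group with the fewest CTCF peaks. For MEI4 in Iho1KO it was 10.08% there and 23.03% in the group with the most. A difference in points thus had less room to fall there, and the lack of a call does not show an equal share. For these groups no background of calls over the autosomes is given. Whether the groups differ from each other was not tested.

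**Figure D5:**
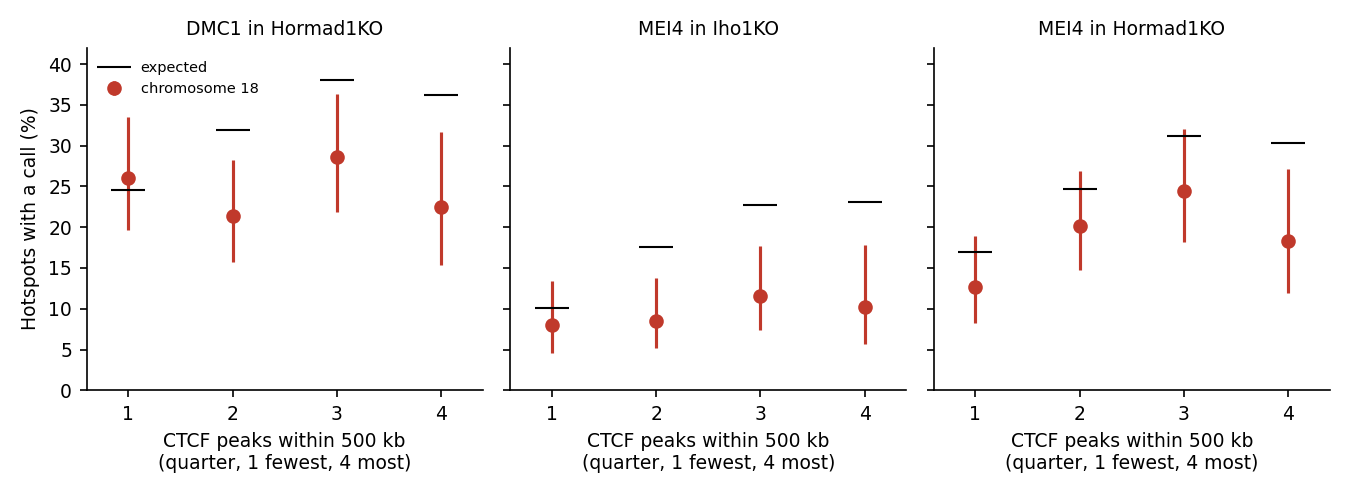
Share of chromosome 18 hotspots with a call (red, Wilson 95% intervals) and the share expected from other autosomes at like wild-type value and in the same group by number of CTCF peaks within 500 kb (black dashes), for 3 lists. For DMC1 in Hormad1KO the shares are 26.0% observed and 24.6% expected in the group with the fewest CTCF peaks, and 22.4% and 36.3% in the group with the most.

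At CTCF peaks in place of hotspots, most lists gave chromosome 18 a share near expectation. Matched on the deposited CTCF score, HORMAD1 was at 111 of the 1024 chromosome 18 CTCF peaks in Mei4KO (10.8%, 10.6% expected), 60 in Iho1KO (5.86%, 6.37% expected), 50 in Spo11KO (4.88%, 4.88% expected), 22 in Prdm9KO and 21 in the wild type, and none of these differences was called. IHO1 in the wild type was higher, at 28 peaks (2.73%, 1.49% expected, difference 1.25 points, 0.402 to 2.45), where 42.1% of the autosomes were called. SYCP3 was lower in Spo11KO (10 peaks, 0.977%, 1.81% expected) and Mei4KO (5 peaks, 0.488%, 1.20% expected), where 15.8% of the autosomes were called in each. The other 18 lists were not called. Chromosome 18 held 3.22% of the autosomal CTCF peaks and between 2.68 and 3.33% of the HORMAD1 peaks that lay away from hotspots. For SYCP3 this share ran from 1.35 to 2.18% over the 6 genotypes, and for IHO1 from 1.98 to 4.03%.

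The strongest hotspots of chromosome 18 were occupied by many of the proteins. They were chosen by their wild-type value or their number of lists, so their ranks in the 2 lists, which differ in length, are given as a description only. Positions are in mm10, counted from 1, and genes are protein-coding genes of RefSeq for GRCm38.p6. The table of genes gives no exons, so a hotspot can be placed inside a gene but not in an exon or intron. The strongest, at chr18:19905437-19907701, had a wild-type value of 11614.5 and was 25th of 13808 in the wild type and 303rd of 5002 in Hormad1KO. It lay 53228 bp from Dsc3, a desmosomal cadherin gene, and had peaks in 10 of the 21 lists, MEI4 in 4 genotypes among them. The second, at chr18:25306349-25308958 in AW554918, ranked 33rd and 44th and had peaks in 13 lists, the most of any chromosome 18 hotspot, with MEI4 in Spo11KO, Iho1KO and Hormad1KO but not in the wild type. The third, at chr18:49932622-49935212 in Dmxl1, ranked 38th and 226th with 10 lists.

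Both the fourth and the fifth lay inside Celf4, which encodes an RNA-binding protein of neurons. The fourth (chr18:25480405-25482608, 49th and 81st) had a MEI4 peak in the wild type only. The fifth (chr18:25748228-25750379, 113th and 181st) had MEI4 in 4 genotypes. The other hotspots in the most lists had 11 each: chr18:75855121-75857439 in Zbtb7c (143rd and 271st), chr18:63256856-63258863 in Piezo2, a mechanically gated ion channel gene (223rd and 889th), and chr18:58371084-58373097, 160511 bp from Fbn2, a fibrillin gene (306th and 1061st).

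Of the chromosome 18 hotspots with values from 1246, 50 of 53 were in the Hormad1KO DMC1 list (94.3%) against 98.6% elsewhere. From 588 to 1246, 41 of 54 were (75.9%) against 83.7%. The strongest 3 hotspots without a DMC1 call in Hormad1KO lay between 80 and 86 Mb. They were chr18:80738227-80740232 in Atp9b (value 2447, 617th in the wild type), chr18:81487108-81489070 (2335, 662nd) and chr18:85679902-85681823 (1288.5, 1353rd). None was bare of break proteins. The first had MEI4 in the wild type, Spo11KO and Hormad1KO, the second in the wild type and Spo11KO, and the third in Spo11KO, Iho1KO and Hormad1KO. Conversely, the strongest hotspots with no MEI4 peak in any genotype were all DMC1 sites in Hormad1KO: chr18:72227449-72229714 in Dcc, the netrin receptor gene (value 1268), chr18:5488392-5490189, 101137 bp from Zeb1 (1165.5), and chr18:9837016-9838759 in Colec12 (1069). Their Hormad1KO ranks were 2568th, 3139th and 4127th, and no protein list had a peak at any of the 3.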

How the data were processed

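The members and lists were chosen with earlier results of these data known. Bowtie2, MACS2 and mm10 are named in the submitters' processing notes without versions; a protein's signal in its own knockout was subtracted by the authors, as the design text states. Of 36 groups (65 samples), 24 had a list that was used, each attached to replicate 1 (or the only sample, for 3 SYCP3 groups), and whether replicates were pooled is not given in the sources used here. The 21 protein lists (80 to 5380 peaks) give positions only. The deposited DMC1 signal value per hotspot and the deposited CTCF score per peak (-6.85 to 37.3, 192 of 32676 below 0) have no stated scale and were used to rank or class sites within a list. Depth is unknown.

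Shares have Wilson 95% intervals. Differences combine that interval with the normal error of the expected share by square-and-add. The intervals of observed less expected shares were checked on simulated hotspots drawn independently of each other. That check could not cover hotspots of the same chromosome varying together. It did not include the knockout less wild-type intervals. Chromosome length was the highest coordinate in any list. Python 3.11.15, numpy 2.4.6, scipy 1.17.1 and pandas 2.3.3 were used. Sites named in the text are the 5 strongest on chromosome 18, the 5 in most protein lists, and the 3 strongest without a Hormad1KO partner and without MEI4. Alternatives were overlap covering 50% of the shorter of both intervals, centre windows of 1 kb, 4, 20 or no classes, hotspots at or above the median value, hotspots over 5 Mb from chromosome ends, no chromosomes 4, 9 and 13, adjusted intervals, hotspots with exactly 1 partner, ranks among shared hotspots, CTCF peaks within 10 or 50 kb or of higher score, the length between the lowest and highest coordinate, and, added after the data were examined, matching on CTCF peaks within 500 kb.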

Additional observations from a re-analysis of the deposited data

Results flagged for a closer look

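In 4 lists the observed less expected share of chromosome 18 in a knockout differed from that in the wild type over the same hotspots, with an interval adjusted over 17 lists. Each sets 1 list against 1 list, so hotspots and not samples give the interval, and a difference between single lists and one between genotypes cannot be told apart. For MEI4 the knockout less wild-type difference was -9.26 points in Iho1KO, -7.45 in Hormad1KO and -5.65 in Spo11KO. For IHO1 in Hormad1KO it was -6.10 points. In each case the wild-type list was the sparser one at hotspots, and the points were not scaled for this. The 3 MEI4 values share the wild-type MEI4 list, so they are not independent of one another.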

How the results depend on the processing

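No paired analysis was possible because each group has 1 list, so samples could not be matched by replicate number, and no replicate could be left out. The lower shares for DMC1 in Hormad1KO, MEI4 in Iho1KO, MEI4 in Hormad1KO and IHO1 in Hormad1KO kept their direction and call under each of 10 alternatives, with ranges of -12.2 to -7.66, -16.9 to -8.41, -12.6 to -6.37 and -10.4 to -4.87 points. MEI4 in Spo11KO ranged from -9.52 to -4.80. It was -5.54 and no longer called with the adjusted interval. The rank shift against the other autosomes, not matched on value, was -19.3 percentile points. It stayed between -19.3 and -17.7 under 5 alternatives, and the CTCF density over the median of the others between 0.864 and 0.884. With no matching on value, 7 in place of 4 protein lists were called lower: IHO1 in Spo11KO (-3.25), HORMAD1 in Spo11KO (-1.98) and SYCP3 in the wild type (-2.47) joined, and wild-type MEI4 reversed to -0.469. HORMAD1 in Mei4KO was called with the stricter overlap (-1.36), the 1 kb window (-1.02) and without chromosomes 4, 9 and 13 (-1.23), and SYCP3 in the wild type with the stricter overlap (-2.20). Small values that were not called reversed: SYCP3 in Prdm9KO with the stricter overlap (-0.149) and the 1 kb window (-0.00359), HORMAD1 in the wild type with 4 classes (0.00739), with hotspots at or above the median (0.180) and away from chromosome ends (0.0685), SYCP3 in Iho1KO at or above the median (-1.03), and the CTCF share with the 1 kb window (0.546) and with higher scores (0.0578). The CTCF share within 50 kb was called (-5.11). Except where the alternative's construction shows it, the cause was not tested.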
